A study of Rattus norvegicus with 6 samples.

Results

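The 10 genes described here encode proteins of the thin filament of the sarcomere, namely the slow troponins *Tnni1*, *Tnnt1* and *Tnnc1*, the fast troponins *Tnni2*, *Tnnt3* and *Tnnc2*, the actins *Acta1* and *Actc1* and the tropomyosins *Tpm1* and *Tpm3*. They were chosen by symbol, and all 10 had at least 1 row on the array. After the rows of a symbol were averaged, they were 10 of the 26299 entries of the table. RNA of skeletal muscle came from 1-day-old male Wistar rat pups, 3 of lower birth weight (LBW, percentiles 5 to 25) and 3 of average birth weight (ABW), with 1 single-color (Cy3) NimbleGen array per pup. The study's text and the protocol in the labels place the ABW pups in percentiles 50 to 75, whereas the entry for each ABW pup gives 25 to 75. The labels name no transgene and no treatment of the pups, and they give no litter for a pup. The samples held soleus and gastrocnemius according to the study's methods, and the share of each muscle in a sample is not given in the sources used here.

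In striated muscle, actin monomers polymerize into the thin filament, tropomyosin lies along it, and the troponin complex holds tropomyosin over the sites where myosin binds. Troponin C binds calcium, troponin I inhibits the interaction of actin with myosin, and troponin T anchors the complex to tropomyosin. Slow and fast fibers carry different genes for each of these subunits, and *Tnnc1* also serves the heart. *Actc1*, the cardiac alpha actin, is abundant in fetal skeletal muscle and gives way to *Acta1*, the skeletal alpha actin, as muscle matures, so that the ratios of these isoforms are used as a reading of fiber type and maturity.

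The promoters of 4 of the genes are shown here because the troponin I and alpha actin genes form pairs compared below. The sequences are the 250 bases before the annotated start, 5′ to 3′ on the strand of the gene, from the RefSeq promoter table of the assembly GRCr8, which held 8 of the 10 genes. The array design follows another build, so that the coordinates belong to GRCr8 alone. Capitals mark matches to the motifs searched on both strands.
Tnni1, GRCr8 chr13:49781279-49781528 (+ strand): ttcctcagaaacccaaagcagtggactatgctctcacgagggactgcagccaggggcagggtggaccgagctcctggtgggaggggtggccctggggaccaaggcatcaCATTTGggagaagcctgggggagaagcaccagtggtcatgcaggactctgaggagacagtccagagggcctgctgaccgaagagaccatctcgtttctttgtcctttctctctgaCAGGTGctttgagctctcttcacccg
Tnni2, GRCr8 chr1:207024240-207024489 (+ strand): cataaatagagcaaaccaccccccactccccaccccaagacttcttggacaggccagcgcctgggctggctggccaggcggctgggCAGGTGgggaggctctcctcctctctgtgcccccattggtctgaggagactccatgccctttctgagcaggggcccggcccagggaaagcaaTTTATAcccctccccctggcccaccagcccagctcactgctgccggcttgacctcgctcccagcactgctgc
Actc1, GRCr8 chr3:121271828-121272077 (- strand): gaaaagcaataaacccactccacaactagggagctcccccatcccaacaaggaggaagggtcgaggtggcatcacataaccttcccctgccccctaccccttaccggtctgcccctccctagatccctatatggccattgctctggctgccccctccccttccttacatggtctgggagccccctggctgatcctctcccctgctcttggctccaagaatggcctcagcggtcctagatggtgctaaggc
Acta1, GRCr8 chr19:68784195-68784444 (- strand): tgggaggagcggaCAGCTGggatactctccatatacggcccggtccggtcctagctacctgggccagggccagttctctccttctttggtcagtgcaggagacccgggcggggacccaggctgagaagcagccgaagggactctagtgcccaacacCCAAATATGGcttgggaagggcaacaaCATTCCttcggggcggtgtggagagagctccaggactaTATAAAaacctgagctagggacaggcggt

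The E-box (CANNTG), which myogenic regulatory factors bind, the CArG box, bound by serum response factor, the MEF2 site, the MCAT element (CATTCC) and the TATA box (TATAAA) were searched in the 250 bases before and the 50 bases after each start. The *Acta1* promoter held a CArG box at -94 to -85, CCAAATATGG, together with an MCAT element at -67 to -62 and a TATA box at -29 to -24. In *Actc1* a CArG box, CCAAATAAGG, lay just behind the annotated start, at 3 to 12, and the 250 bases before the start held no match. A CArG box was found in 1.64% of the 33469 promoters of the table, an MCAT element in 14.2% and the TATA letters in 14.2%. *Tnni1* held E-boxes at -141 to -136, at -26 to -21 and at 4 to 9, and *Tnni2* held a single one at -164 to -159, where 72.1% of all promoters hold at least 1. The TATA letters also stood in *Tnni2*, on the opposite strand at -72 to -67. No MEF2 site was found in the 8 genes, where 3.29% of all promoters hold one. These matches describe the letters of the promoters.

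The deposited log2 values ran from 4.58 to 15.49, and the medians of the 6 arrays lay between 8.70 and 8.76. In bulk tissue, fewer fibers of a type and less RNA per fiber cannot be told apart. Of 15 skeletal muscle markers, the 9 with a row were all above the median signal of the table, and their summed level (log2 of the mean unlogged signal) was between 13.79 and 13.86 in LBW and between 13.62 and 13.80 in ABW pups. Across all rows LBW 2 was closest to ABW 1 (Pearson's r = 0.992), ahead of LBW 1 (0.991) and LBW 3 (0.987), and LBW 3 had the lowest correlations with the other pups, 0.984 to 0.990. Results that turn on a single pup are given without it. Signals of different genes come from different probes and were not compared with each other as amounts.

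In the limma fit across all entries, the 95% interval of the difference between the birth weight groups included 0 for each of the 10 thin filament genes. On the log2 scale the differences ran from -0.13 (*Tnnt3*) to 0.27 (*Tnni1*), which are fold changes of 0.916 and 1.20, with 5 genes higher and 5 lower in LBW. The study's threshold combines a fold change (at least 1.5) with an unadjusted p (under 0.05). By limma it was passed by 0 of the 10 genes, where 4.27% of all 26299 entries passed it, 2.38% higher and 1.89% lower in LBW. Without the fold change criterion, limma also called 0 of the 10, compared to 12.4% of all entries, 5.63% higher and 6.73% lower. The 2-sided test named in the study's methods called 0 of the 10 as well. This second count became 1, *Tnni1*, in 3 of the alternative limma fits (unadjusted p of 0.0121 without ABW 1, 0.019 with an intensity trend in the variance and 0.0413 after quantile normalization). The smallest adjusted p of the 10 was 0.408 by limma (*Tnni1*), and 0 of all entries had an adjusted p under 0.05. For 1 of the 10 the values of the groups were fully separate, higher in LBW, compared to 17.4% of all entries, 7.27% higher and 10.1% lower. The 95% interval of each of the 10 genes by limma lay within a 1.5-fold change in either direction. The end farthest from no change was that of *Tnni1*, whose interval ran from 0.999 to 1.45 as a fold change. The median absolute difference was 0.079 for the 10 genes, compared to 0.13 for all entries and 0.090 for the 3844 entries with at least the signal of the dimmest of the 10 genes.

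**Figure D1:**
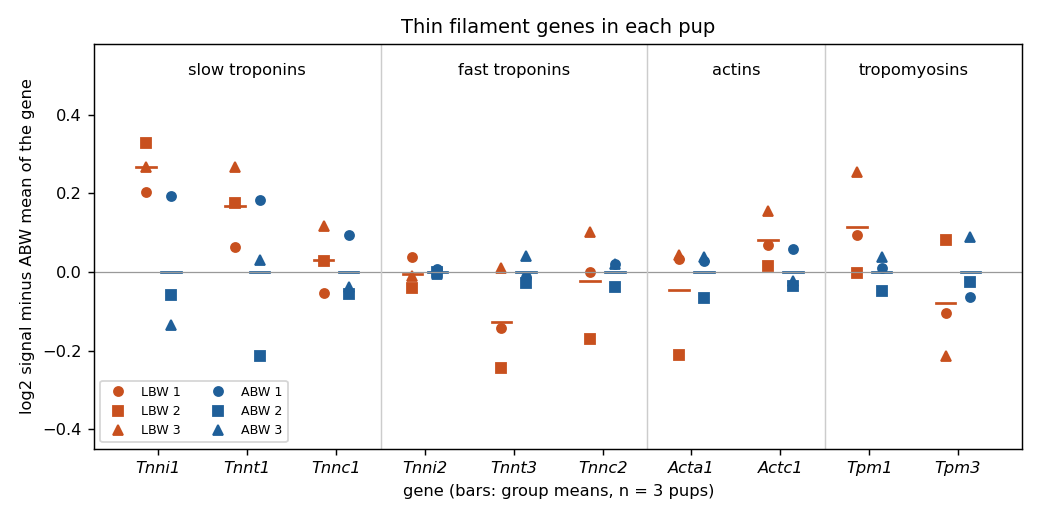
Log2 signal of each thin filament gene in each of the 6 pups, on the y axis as the difference from the mean of the 3 ABW pups of that gene, with genes on the x axis, 1 point per pup and bars at the group means. The 3 LBW points lie above the 3 ABW points only for *Tnni1*, and LBW 2 is the lowest point for all 3 fast troponins and for *Acta1*.

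**Figure D2:**
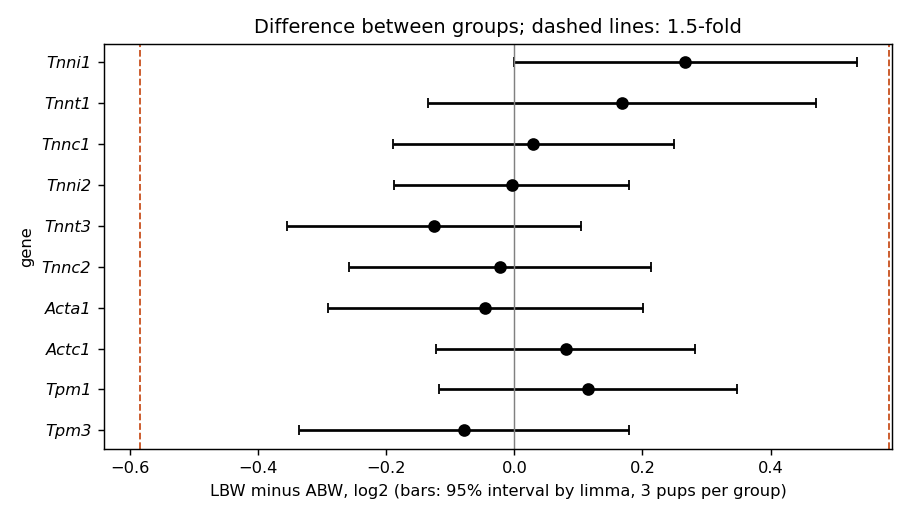
LBW minus ABW difference of each thin filament gene on the log2 scale (x axis), with 95% intervals by limma from 3 pups per group, and dashed lines at a 1.5-fold change. All 10 intervals end before the dashed lines, and all include 0.

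The 10 genes gave signals near the upper end of the recorded range. The mean over all pups was above 14 for 8 of them, with 15.49 as the highest value on any array. Only *Tpm1* and *Tpm3*, whose averaged rows include dimmer transcripts, were below. The values give no saturation flag, and how far the brightest signals are compressed was not tested.

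Among the slow troponins, *Tnni1* (NM_017184), the slow skeletal inhibitory subunit, had the largest difference of the 10 genes. It was at 14.16, 14.28 and 14.22 in LBW 1, 2 and 3, and at 14.15, 13.89 and 13.82 in ABW 1, 2 and 3. Every LBW pup was above every ABW pup, but LBW 1 and ABW 1 were closer to each other than the SD of either group. The LBW mean was 14.22 ± 0.062 (SD, n = 3), and the mean of the ABW pups was 13.95 ± 0.17 (SD, n = 3). The difference was 0.27 (SE 0.11), with an unadjusted p of 0.0509 and an adjusted p of 0.408 by limma. The exact permutation test gave a 2-sided p of 0.1, the smallest that 3 pups against 3 allow. Leaving out any 1 pup kept *Tnni1* higher in LBW, with the difference between 0.20 (without ABW 3) and 0.36 (without ABW 1).

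*Tnnt1* (NM_134388), which anchors the slow complex to tropomyosin, was at 14.21, 14.32 and 14.41 in LBW 1, 2 and 3 and at 14.33, 13.93 and 14.18 in ABW 1, 2 and 3. ABW 1 was above LBW 1 and LBW 2, and the groups overlapped. The difference was 0.17 (SE 0.13, adjusted p = 0.636 by limma), and it depended on ABW 2, the lowest pup, since it was 0.061 without it and 0.26 without ABW 1. *Tnnc1* (NM_001034105), the calcium sensor of slow and cardiac muscle, was at 14.67, 14.75 and 14.84 in LBW and at 14.82, 14.67 and 14.69 in ABW pups. Its groups overlapped over most of their range, with a difference of 0.030 (SE 0.092, adjusted p = 0.923 by limma), which was -0.013 without LBW 3.

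The 3 fast troponins had differences between -0.13 and -0.0044 on the log2 scale. *Tnni2* (NM_017185), the fast inhibitory subunit, varied least of the 10 genes, with a range of 0.077 over the 6 pups. It was at 14.83, 14.76 and 14.79 in LBW 1, 2 and 3 and at 14.80, 14.80 and 14.79 in ABW 1, 2 and 3. The ABW values fell inside the range of the LBW values. The difference was -0.0044 (SE 0.077, adjusted p = 0.987 by limma), with no settled sign, since it was 0.014 without LBW 2 and 0.015 after quantile normalization.

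*Tnnt3* (NM_031532), the fast subunit that binds tropomyosin, was at 14.71, 14.60 and 14.86 in LBW and at 14.84, 14.82 and 14.89 in ABW pups. LBW 1 and LBW 2 were below all ABW pups and LBW 3 was among them. The difference was -0.13 (SE 0.096, adjusted p = 0.638 by limma), which leaving out LBW 2 moved to -0.067 and leaving out LBW 3 to -0.19. *Tnnc2* (NM_001037351), the fast calcium sensor, was at 15.23, 15.06 and 15.33 in LBW and at 15.25, 15.19 and 15.25 in ABW pups. LBW 2 was the lowest and LBW 3 the highest of the 6 pups, so that the LBW values enclosed those of the ABW pups. The difference of -0.023 (SE 0.098, adjusted p = 0.944 by limma) was 0.051 without LBW 2 and 0.0091 after quantile normalization.

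To compare slow against fast isoforms, the log2 signal of the fast gene was subtracted from that of the slow gene within each pup, which removes any shift common to both genes. Only the change of this value between groups is read, and it is given relative to its ABW mean. For *Tnni1* minus *Tnni2* the LBW pups were at 0.17, 0.37 and 0.28, and the ABW pups at 0.19, -0.058 and -0.13. ABW 1 lay above LBW 1, so that the groups overlapped. The difference between groups was 0.27 (SE 0.11), a 1.21-fold higher slow to fast ratio in LBW (exact permutation test, 2-sided p = 0.2). For *Tnnt1* minus *Tnnt3* the LBW pups were at 0.21, 0.42 and 0.26, and the ABW pups at 0.20, -0.19 and -0.0092. The groups did not overlap, but LBW 1 and ABW 1 were nearly level. This difference was 0.29 (SE 0.13), with the smallest p that this design allows (exact permutation test, 2-sided p = 0.1). *Tnnc1* minus *Tnnc2* showed no such separation, with LBW pups at -0.055, 0.20 and 0.015 and ABW pups at 0.074, -0.017 and -0.057. Here the difference was 0.053 (SE 0.085, exact permutation test, 2-sided p = 0.6), and it was -0.020 without LBW 2. These are 3 of 5 pairs that were compared, and p-values of this design cannot fall under 0.1.

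Averaged over the 3 subunits and given without a test, the slow troponins were at 0.071, 0.18 and 0.22 in LBW 1, 2 and 3 and at 0.16, -0.11 and -0.047 in ABW 1, 2 and 3, relative to the ABW mean. The fast troponins were at -0.035, -0.15 and 0.033 in LBW and at 0.0042, -0.022 and 0.018 in ABW pups. The difference of slow minus fast was 0.21 on the log2 scale, between 0.14 (without LBW 2) and 0.28 (without ABW 1) when single pups were left out. ABW 1, at 0.15, was within the LBW values of 0.11, 0.33 and 0.18, while ABW 2 and ABW 3 were at -0.088 and -0.065.

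**Figure D3:**
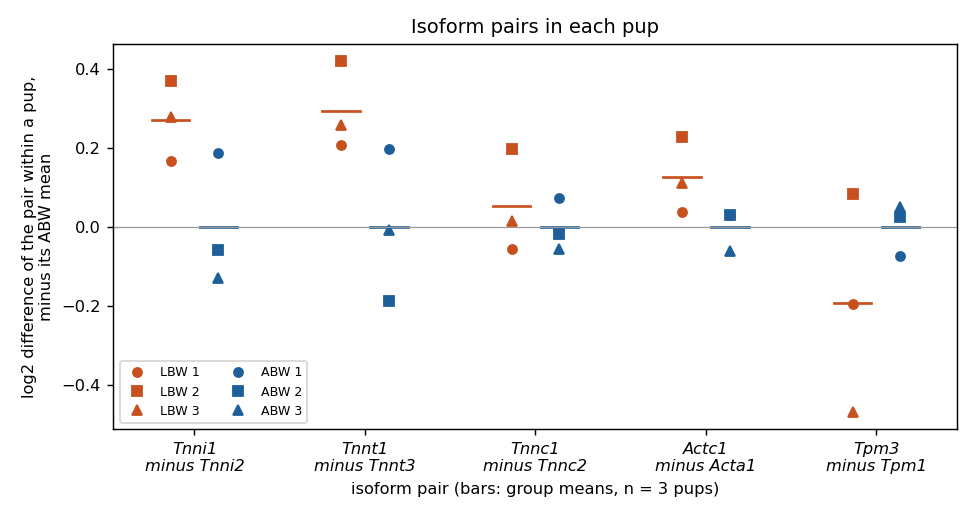
Log2 difference of the 2 genes of each isoform pair within a pup, given on the y axis relative to its mean over the ABW pups, with the 5 pairs on the x axis, 1 point per pup and bars at the group means. The LBW points lie above the ABW points without overlap for *Tnnt1* minus *Tnnt3* and for *Actc1* minus *Acta1*, and LBW 2 is the highest point of all 5 pairs.

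The alpha actins, whose promoters are printed above, differed little between the groups. *Acta1* (NM_019212) was at 15.39, 15.15 and 15.41 in LBW 1, 2 and 3 and at 15.39, 15.30 and 15.40 in ABW 1, 2 and 3. LBW 2 was the lowest pup, ABW 2 was the next, and the other 4 lay close together. The difference was -0.045 (SE 0.10, adjusted p = 0.892 by limma), and without LBW 2 it was 0.038. *Actc1* (NM_019183) was at 15.23, 15.17 and 15.31 in LBW and at 15.22, 15.12 and 15.13 in ABW pups. ABW 1 was above LBW 2, and the groups overlapped. The difference was 0.080 (SE 0.084, adjusted p = 0.741 by limma), which leaving out LBW 3 moved to 0.043 and leaving out LBW 2 to 0.11.

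Within each pup, *Actc1* minus *Acta1* was at 0.037, 0.23 and 0.11 in LBW and at 0.031, 0.031 and -0.062 in ABW pups, relative to the ABW mean. All LBW pups were above all ABW pups, with LBW 1 closest to them. The difference was 0.13 (SE 0.064), a 1.09-fold higher cardiac to skeletal ratio in LBW (exact permutation test, 2-sided p = 0.1), and it was 0.074 without LBW 2. The 2 alpha actins are nearly identical proteins, and how far probes of one read RNA of the other was not tested.

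*Tpm1*, the alpha tropomyosin gene of fast and cardiac muscle, and *Tpm3*, which supplies slow tropomyosin, each make many transcripts by alternative exons. *Tpm1* had 9 rows and *Tpm3* had 2, and the other 8 genes had 1 row each. The mean of the 9 *Tpm1* rows was 13.44, 13.34 and 13.60 in LBW and 13.36, 13.30 and 13.38 in ABW pups. LBW 3 stood above the other pups and LBW 2 was within the ABW values. The difference was 0.12 (SE 0.097, adjusted p = 0.674 by limma), which was 0.17 without LBW 2 and 0.046 without LBW 3. *Tpm3* was at 11.89, 12.07 and 11.78 in LBW and at 11.93, 11.97 and 12.08 in ABW pups. LBW 1 and LBW 3 were the lowest, and LBW 2 was among the ABW pups. The difference was -0.079 (SE 0.11, adjusted p = 0.809 by limma), -0.16 without LBW 2 and -0.011 without LBW 3. *Tpm3* minus *Tpm1*, from these averaged rows, ran opposite to the troponin pairs, with a difference of -0.19 (SE 0.16, exact permutation test, 2-sided p = 0.4). It lay between -0.33 (without LBW 2) and -0.057 (without LBW 3). Its sign depends on which rows are averaged. The bright *Tpm3* row, NM_173111, differed by 0.019 and the dim one, NM_057208, by -0.18, and the *Tpm1* rows are given below.

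The *Tpm1* rows did not move alike. On the log2 scale, NM_001034070, NM_001034071, NM_001034072 and NM_001034074 were higher in LBW by 0.26, 0.36, 0.26 and 0.26, while the 5 other rows differed by -0.067 to 0.031. NM_001034070 was at 13.66, 13.64 and 14.01 in LBW and at 13.46, 13.51 and 13.55 in ABW pups, the 1 row of these 11 whose groups did not overlap, compared to 17.4% of all 26419 rows (7.28% higher in LBW). NM_001034071 was at 10.62, 10.45 and 11.07 in LBW and at 10.37, 10.24 and 10.46 in ABW pups. LBW 3 was the highest pup in both rows, and ABW 3 was above LBW 2 in the latter. How far the differences of these rows depend on LBW 3 was not tested. No row of either gene had an unadjusted p under 0.05 by limma, where 12.4% of all rows had one, nor passed the study's threshold, as 4.28% of all rows did. The adjusted p of NM_001034070, the row that came nearest, was 0.451 by limma. Of the *Tpm3* rows, NM_057208 was at 9.87, 10.32 and 9.84 in LBW and at 10.12, 10.17 and 10.27 in ABW pups, with LBW 2 above and LBW 1 and LBW 3 below all ABW pups. NM_173111 differed by 0.019 (SE 0.093, adjusted p = 0.952 by limma). Transcripts of a gene share exons, so that several rows may read the same RNA, and the difference between rows was not tested.

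**Figure D4:**
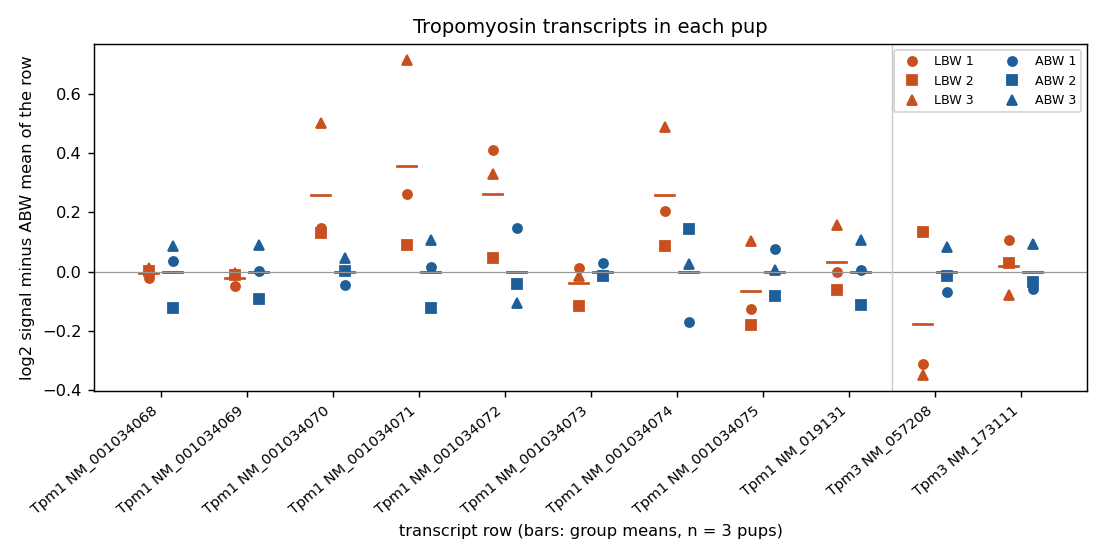
Log2 signal of each *Tpm1* and *Tpm3* transcript row in each pup, on the y axis as the difference from the ABW mean of that row, with rows on the x axis, 1 point per pup and bars at the group means. The LBW means of 4 *Tpm1* rows lie at 0.26 to 0.36 and those of the other 5 near 0, and LBW 3 is far above the other pups for NM_001034070, NM_001034071 and NM_001034074.

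The highest and lowest values fell on few of the pups. LBW 2 was the lowest of the 6 pups for all 3 fast troponins and for *Acta1*, and ABW 2 was the lowest for *Tnnt1*, *Tnnc1*, *Actc1* and *Tpm1*. LBW 3 was the highest pup for 6 of the 10 genes. Markers of other tissues also varied between these pups. The 9 bone markers had summed levels of 11.93, 8.86 and 12.63 in LBW 1, 2 and 3, while the ABW pups were at 7.85 to 8.15. The 3 neutrophil markers with a row, of 7 listed, were at 11.45, 10.12 and 11.46 in LBW and at 8.57 to 9.10 in ABW pups. The 7 adipocyte markers with a row, of 8 listed, were at 12.51 to 12.84 in LBW and at 12.75 to 13.25 in ABW pups. Of the bone markers 5 rose past the study's threshold by limma, as did all 3 neutrophil markers, while 2 adipocyte markers fell past it. Of all entries 4.27% passed it, and none of these calls held after adjustment. The part of these tissues in the troponin, actin and tropomyosin values was not tested.

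Of 39 other genes of the thin filament, its anchors and the factors that drive it, 23 had a row. By limma 0 of them passed the threshold of the study, where 4.27% of all entries passed it. The median difference of the 23 genes was 0.034, compared to -0.023 over all entries, with 15 higher and 8 lower in LBW. Without the fold change criterion limma called 4 of the 23, where 12.4% of all entries were called, and 6 of the 23 did not overlap between the groups, where 17.4% of all entries did not. *Tnni3*, the cardiac inhibitory subunit, was at 10.34, 10.37 and 10.37 in LBW and at 10.20, 9.54 and 9.67 in ABW pups. Its LBW values were nearly equal, whereas ABW 1 was well above the other ABW pups. The difference was 0.55 (SE 0.17, adjusted p = 0.315 by limma), and without ABW 1 it was 0.75 and past the study's threshold. *Tmod2*, a tropomodulin that caps pointed ends, differed by -0.45 (SE 0.16, adjusted p = 0.349 by limma), with every LBW pup lower. *Tmod1*, the tropomodulin of striated muscle, differed by 0.27 (SE 0.13, adjusted p = 0.469 by limma). Every LBW pup was higher, but LBW 3 (13.3618) and ABW 1 (13.3615) were nearly level. *Xirp2*, an actin-binding protein of muscle cell junctions, differed by 0.35 (SE 0.10, adjusted p = 0.301 by limma), also with every LBW pup higher. Other tropomyosins and actins were close to level, with -0.021 for *Tpm2*, -0.12 for *Tpm4*, 0.015 for *Acta2* and -0.14 for *Actb*.

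Cardiac genes were examined because *Actc1* and *Tnnc1* are shared with the heart and *Tnni3* is the cardiac inhibitory subunit. Of 10 cardiac markers 7 had a row, and their summed level was 11.68 to 11.93 in LBW and 11.53 to 11.79 in ABW pups. This sum is carried by *Tnnt2*, which developing skeletal muscle also expresses. Without it, a choice made after seeing the data, the groups were separate. The other 6 markers were then at 8.35 to 8.36 in LBW and at 7.77 to 8.17 in ABW pups. Most of this remaining sum is *Tnni3*, at 10.34 to 10.37 in LBW and 9.54 to 10.20 in ABW pups. The separation of the sum thus largely repeats the *Tnni3* difference given above. The part of cardiac RNA in the *Actc1*, *Tnnc1* and *Tnni3* values was not tested. *Nppa*, a natriuretic peptide of the atria, was between 5.14 and 5.39 in all pups, and *Nkx2-5*, a cardiac transcription factor, between 5.57 and 5.81, both near the lower end of the recorded range. *Tnnt2*, the cardiac troponin T, differed by 0.081 (SE 0.12, adjusted p = 0.819 by limma). *Myh6*, the alpha cardiac myosin, differed by 0.36 (SE 0.12, adjusted p = 0.322 by limma), with every LBW pup higher. *Tbx5* and *Nppb* differed by 0.26 and 0.15, and their groups overlapped. The 4 smooth muscle markers with a row, of 8 listed, were at 13.60 to 13.75 in LBW and 13.63 to 13.69 in ABW pups, with *Acta2*, *Tagln*, *Cnn1* and *Actg2* differing by -0.11 to 0.066.

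Fiber type genes outside the 10 were read in the same way, and 0 of them passed the study's threshold by limma, where 4.27% of all entries passed it. Of 13 slow muscle genes 10 had a row, and 8 of the 10 had higher means in LBW, with a median difference of 0.21, compared to -0.023 over all entries. Relative to the ABW mean, these 10 genes averaged 0.089, 0.27 and 0.19 in LBW 1, 2 and 3 and 0.16, -0.094 and -0.066 in ABW 1, 2 and 3, so that ABW 1 was above LBW 1. *Myh7*, the slow myosin heavy chain, differed by 0.41 (SE 0.20, adjusted p = 0.474 by limma), with overlapping groups. *Sln*, the sarcolipin gene, differed by 0.31 (SE 0.092, adjusted p = 0.305 by limma), and *Csrp3*, a Z disc protein, by 0.30 (SE 0.12, adjusted p = 0.395 by limma), both with every LBW pup higher. *Pln*, a regulator of the calcium pump, differed by 0.38 (SE 0.22, adjusted p = 0.532 by limma), with overlapping groups and a signal below the median of the table. Without LBW 3 its difference was 0.60 and past the study's threshold. The 2 slow genes lower in LBW were *Myl2* (-0.23, SE 0.12) and *Ppargc1a* (-0.014, SE 0.12), both with overlapping groups. Without the fold change criterion, limma called 2 of the 10 slow genes, *Sln* and *Csrp3*, both higher in LBW. Of all entries 12.4% were called, 5.63% higher. The groups did not overlap for 3 of the 10, *Sln*, *Csrp3* and *Casq2* (0.20, SE 0.10), all higher in LBW, against 17.4% of all entries, 7.27% higher.

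Of 14 fast muscle genes 6 had a row, with 3 higher and 3 lower in LBW and a median of -0.061. *Pvalb*, the calcium buffer parvalbumin of fast fibers, was at 7.44, 8.79 and 6.87 in LBW and at 8.31, 8.58 and 9.32 in ABW pups. LBW 1 and LBW 3 were below all ABW pups and LBW 2 was among them. The difference was -1.04 (SE 0.51, adjusted p = 0.468 by limma), and without LBW 2 it was -1.58 and past the study's threshold. *Actn3*, the fast alpha actinin, differed by -0.24 (SE 0.28), *Myh4*, the type IIb myosin, by -0.19 (SE 0.20) and *Pfkm*, muscle phosphofructokinase, by 0.17 (SE 0.12), all with overlapping groups. *Atp2a1* and *Myl1* were also higher in LBW, by 0.16 (SE 0.11) and 0.071 (SE 0.095), with overlapping groups. *Pvalb* and *Myh4* were below the median signal of the table, and the other fast genes were above it. Of 8 developmental muscle genes 6 had a row and 5 of these were higher in LBW, with a median of 0.25. *Ncam1*, a cell adhesion molecule of developing muscle and nerve, differed by 0.48 (SE 0.18, adjusted p = 0.359 by limma), and it passed the study's threshold without LBW 2 (0.59) and without ABW 1 (0.61). *Chrng*, the fetal acetylcholine receptor subunit, differed by 0.36, *Myog* by 0.25, *Chrna1* by 0.25 and *Myh3* by 0.062. The 1 gene lower in LBW was *Myod1* (-0.11). The groups overlapped for all 6, where 17.4% of all entries did not overlap. Without the fold change criterion limma called 1 of the 6, *Ncam1*, where 12.4% of all entries were called, 5.63% higher in LBW. Of the 9 skeletal muscle markers with a row, 8 were higher in LBW and 1, *Myod1*, was lower (-0.11), with a median difference of 0.069. The groups did not overlap for 2 of the 9, both higher in LBW, compared to 17.4% of all entries, 7.27% higher. These were *Des* and *Chrnd*, which differed by 0.22 and 0.20, with adjusted p-values of 0.426 and 0.440 by limma.

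**Figure D5:**
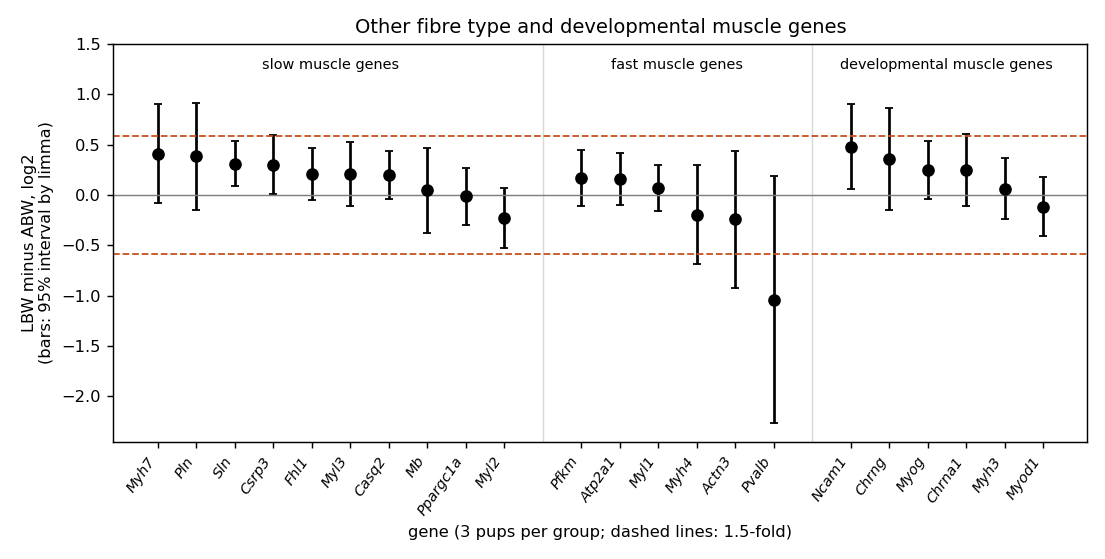
LBW minus ABW difference on the log2 scale (y axis) of the slow, fast and developmental muscle genes with a row, outside the 10 genes, with 95% intervals by limma from 3 pups per group and dashed lines at a 1.5-fold change. Of the 10 slow genes 8 lie above 0, and *Pvalb* has the widest interval.

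The genes most like the leading gene of each class were sought among 5168 named genes with a signal above the median of the table. The measure was Pearson's r over the same 6 arrays, which also share their normalization, and the highest values among so many genes are a description only. For *Tnni1* they were *Lrrn1* (r = 0.991), *Snap91* (0.990) and *Cdk5r1* (0.988), which are known from neurons and differed by 0.60, 0.77 and 0.63 between the groups on the log2 scale. For *Actc1* they were *Plag1* (r = 0.988), *Mprip* (0.988), which binds myosin phosphatase, and *Ahi1* (0.979), with differences of 0.21, 0.13 and 0.12. For *Tpm1* they were *Gask1b* (r = 0.990), *Ccn2* (0.977) and *Mpped2* (0.977), with differences of 0.067, 0.54 and 0.50.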

How the data were processed

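The 6 arrays measured muscle RNA of 3 pups per group. The deposited values are log2 signals, normalized by the authors in R with Bioconductor packages, and the submitters' processing notes name RMA. They hold 1 value per transcript row, from 5 probes according to the methods, with no background or detection call, so that precision is limited by the number of arrays. Rows were named through a RefSeq gene table (GRCr8), which gave 9747 of 26419 rows one of 9627 symbols, and rows of a symbol were averaged, leaving 26299 entries. Differences (LBW minus ABW) were fitted in R 4.3.3 by lmFit and eBayes of limma 3.58.1 (2-sided, Benjamini-Hochberg over all entries), tested beforehand on simulated data, and single values with an exact permutation test. The gene list, the pairs and the other lists were chosen with earlier results of these data known. Named genes were the 10 genes, those of each list past the threshold (at most 6) or with the largest differences (up to 4), and genes used to describe a list. Alternatives were the replicate block, leaving out each pup, quantile normalization, centering, a filter on dim genes, other variance models, the 2-sided test of the methods, single rows and arithmetic means.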

Additional observations from a re-analysis of the deposited data

How the results depend on the processing

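None of the 10 genes passed the study's threshold under any of the 148 alternative fits of single genes, and 6 of these fits turned a sign, all of differences near 0. Without the fold change criterion, *Tnni1* had an unadjusted p under 0.05 in 3 of them (0.0121 to 0.0413). *Tnni2* (0.015) and *Tnnc2* (0.0091) turned after quantile normalization. With single pups left out, *Tnni2* ran from -0.025 to 0.014, *Tnnc2* from -0.085 to 0.051, *Acta1* from -0.090 to 0.038 and *Tnnc1* from -0.013 to 0.076. The entries past the threshold, 1124 in all, were 584 by the methods' 2-sided test, 335 at a fold change of 2 or more and 3250 with no fold change criterion, which by construction removes or adds calls. They lay between 798 and 1546 without single pups, and those past the adjusted threshold between 0 and 125 (without LBW 2). The counts of thin filament, slow, fast and developmental genes past the threshold, each 0, lay between 0 and 1 without single pups. Between LBW and ABW pups of the same replicate number, deviations from the group means correlated at 0.087, 0.10 and 0.055. Pups of different numbers were not compared in this way, so whether the numbers pair the pups stays unknown. With the replicate block 1230 entries passed, 0 of them thin filament genes. Causes were not tested. The number of pups, 3 per group, limits the precision to the intervals given above, and the signal over background is unknown.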
